A study of Mus musculus with 12 samples.

Results

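Of the genes that STAT proteins switch on, those of the suppressor of cytokine signaling (SOCS) family close a feedback loop. A cytokine receptor activates a Janus kinase, the kinase phosphorylates a STAT transcription factor, and the STAT raises transcription of Socs1, Socs2, Socs3 and Cish, whose products bind the receptor or the kinase and end the signal. Pim1 and Pim2, which encode serine/threonine kinases that favor survival and growth of blood cells, and Bcl3, an atypical IκB protein that binds the p50 and p52 subunits of NF-kB in the nucleus, are further direct STAT targets. Pias3 encodes a SUMO E3 ligase that binds activated STAT3 and limits its activity, and it is a regulator rather than a classical target. The 8 genes were chosen by symbol from the 24454 genes of the deposited table.

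The leukemic blasts came from a mouse model of acute myeloid leukemia (AML), in which fetal liver cells were transformed by a retrovirus that carries the MLL-AF9 fusion oncogene and the fluorescent protein Venus. Wildtype (WT) cells make STAT3α and the shorter isoform STAT3β, whereas Δβ cells lack STAT3β and keep STAT3α, and cells of both genotypes carried MLL-AF9 and Venus. They were injected into young adult male NSG mice, a strain without B, T and NK cells of its own, and Venus+ cells were sorted from the spleen (SP) and bone marrow (BM) of diseased animals. Poly-A enriched RNA of WT SP, Δβ SP, WT BM and Δβ BM was sequenced with 3 replicates per group, 12 libraries in all, and neither the number of transformed lines nor the mouse behind each replicate is given in the labels, so that p-values measure the spread between these samples.

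Values are normalized counts, each the count of a gene over the size factor of its library, and 1 read was worth 0.775 to 1.17 normalized counts. The libraries held 9001051 to 13859727 reads on genes, and a gene with under 3 reads was not taken as expressed, a limit set for counting error alone. Differences were tested with limma on log2 (normalized count + 1) over the 11476 genes whose mean was 10 or more, with Benjamini-Hochberg adjustment over all of them, and a call was an adjusted p under 0.05. A log2 fold change on this scale understates the change of low genes. In a bulk sample, fewer cells that express a gene and less RNA per cell cannot be told apart. Stat3 itself, whose α and β transcripts counts per gene cannot separate, lay between 2978 and 4430 normalized counts in WT and between 2674 and 3236 in Δβ blasts of SP. Its BM range was 2714 to 3200.5 in WT and 2349 to 3228 in Δβ, so that the genotypes overlapped in both organs. The ribosomal RNA precursor Rn45s took 2.48% and 2.41% of the reads in WT SP replicates 2 and 3 and 0.178% to 0.725% in the other libraries. The sort was checked against marker genes. All 12 markers of myeloid blasts were present, with a summed level of 87237 to 206907 normalized counts per library. WT SP replicate 3 stood apart from the other WT SP libraries among them, with Mpo at 5947, 5256 and 40587 and Lyz2 at 62148, 42416 and 10341 normalized counts in WT SP replicates 1 to 3. Limma called none of the 12 blast markers between the genotypes in SP and DESeq2 called 2 lower in Δβ, and leaving out WT SP replicate 3 moved limma's calls over all genes in that comparison from 12 to 1884. The 4 globin genes were listed at 0 in all 12 libraries, and the megakaryocyte markers Pf4 and Ppbp had fewer than 3 reads in each. The megakaryocyte markers Itgb3, Itga2b, Gp1bb and Gp9, however, had more than 3 reads in every library. Itgb3, at 185 to 783 normalized counts, made up most of the sum of the 6 given below. The summed level of 9 mature neutrophil markers was 204674, 331125 and 136444 normalized counts in the 3 WT SP replicates in order, and 98239, 90836 and 113444 in Δβ SP, so that these groups did not overlap. Of the single markers, only S100a8 and S100a9 separated them. In BM it was 150677, 138284 and 397697 in WT and 228780, 139678 and 110215 in Δβ. The 9 macrophage markers summed to 2683 to 8000 normalized counts, mostly from Vcam1 and Adgre1. Of the 12 libraries, Vcam1 was lowest (699) and Adgre1 highest (3880) in WT SP replicate 1. WT SP replicate 1 had the highest level of the other 7, with Mertk at 61.5 normalized counts, against at most 5.95 in each other library, C1qb at 30.8, against at most 4.3, and C1qa at 14.8, against at most 3.0. The 5 B cell markers in the table summed to 223 to 466 normalized counts, the 6 megakaryocyte markers to 250 to 890, and the 8 markers of endothelium and stroma to 831 to 2550. The 8 T and NK cell markers in the table summed to 95.8 to 863 normalized counts. The highest sum, in WT SP replicate 3, was 828 of Nkg7, whereas Cd8a, Cd3g, Cd3d and Cd3e were highest in Δβ BM replicate 1 (103, 72.8, 63.1 and 48.9) and Cd4 in Δβ SP replicate 1 (45.7). Whether such cells were part of any difference given for the 8 genes was not tested.

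Genes of this group spanned a wide range of levels. Per kilobase of exon, the mean over the 12 libraries was 211 normalized counts for Pim1, 136 for Bcl3, 94.1 for Pias3 and 76.0 for Socs3. It was 21.8 for Pim2, 21.0 for Socs1 and 8.71 for Cish, and 0.251 for Socs2. Pim1, Bcl3 and Pias3 were thus the abundant transcripts, Socs3 was at 223 per kilobase in WT SP and at 23.3 to 33.2 in the other groups, and Socs2 was close to absent. Of the 8 genes, 7 passed the filter on low values and were tested, and all 7 passed it on the mean over the 12 libraries and had at least 7 reads in every library.

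**Figure D1:**
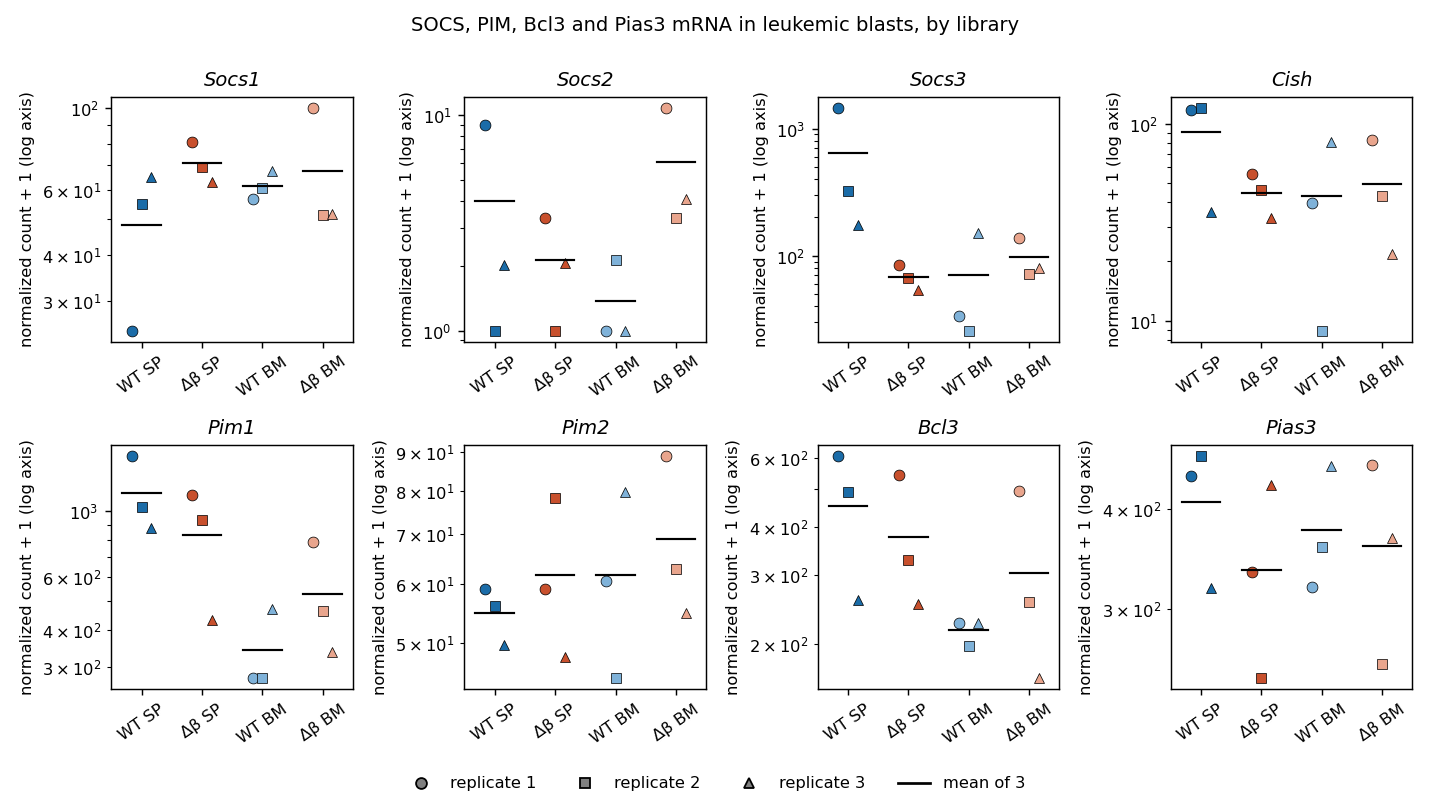
Normalized counts plus 1, on a log axis, of the 8 genes in each library of the 4 groups. Symbols mark the replicate number and the bar is the mean of 3. Socs3 lies between 175 and 1442 in WT SP and at or below 150.1 in the other 9 libraries, and Socs2 is at 0 in 4 libraries.

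No member passed limma's adjusted threshold in any of the 5 comparisons, where 12 of the 11476 genes (0.105%) were called for Δβ against WT in SP and 8 (0.0697%) in BM, and none (0%) for SP against BM in WT, for SP against BM in Δβ or for the difference of the genotype effect between the organs. At an unadjusted p under 0.05 in the same limma fits, 1 of the 7 members (Socs3) was found for the genotype in SP, where 14.9% of all genes were, and 0 in BM, where 2.59% were. Between SP and BM it was 3 of 7 in WT (Socs3, Pim1 and Bcl3), with 8.27% of all genes, and 0 of 7 in Δβ, with 1.77%. For the difference of the genotype effect it was 1 of 7 (Socs3), with 3.2% of all genes.

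DESeq2 on the recovered reads called Socs3 for the genotype in SP, where it called 3.98% of all genes, and Socs3 and Pim1 for SP against BM in WT, where it called 0.967%. It called 0 members for the genotype in BM (0.322% of all genes), for SP against BM in Δβ (0.0174%) and for the difference (0.0261%). With edgeR's quasi-likelihood test 0 members were called in all 5 comparisons, with 0.0349% of all genes called for the genotype in SP, 0.0697% in BM and 0% in the other 3.

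The largest genotype difference among the 7 tested members was that of Socs3 in blasts from SP. Socs3, the feedback inhibitor of gp130 and G-CSF receptor signaling, was measured at 1442 normalized counts in WT SP replicate 1, at 321 in replicate 2 and at 175 in replicate 3. In Δβ SP, in the same order of replicates that is kept for all triplets of values, it was at 83.7, 66.1 and 52.3. All 3 Δβ libraries lay below all 3 WT libraries, with means of 67.4 ± 15.7 and 646 ± 693 (SD, n = 3 each), which is 9.59-fold lower in Δβ. Of all tested genes, 9.37% were lower in Δβ SP with no overlap of the groups. The WT SP values themselves spread over 8.26-fold, and replicate 1 carried most of their mean. Without WT SP replicate 1, the mean of the other two was 248, which is 3.68-fold above Δβ SP.

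The log2 fold change of Socs3 for Δβ against WT in SP was -2.69 (standard error, SE, 0.77, adjusted p = 0.218 from limma). With DESeq2 it was -3.23 (adjusted p = 0.00225) and with edgeR -3.21 (adjusted p = 0.178), so that the call depended on the tool. Over the 22 alternatives, the adjusted p was 0.00225 to 0.527 and the sign was negative in each of them. Without WT SP replicate 3, limma called Socs3 (log2 fold change -3.34, adjusted p = 0.0207), in a fit that called 1884 of all genes. Without WT SP replicate 1 the log2 fold change was -1.82 (adjusted p = 0.473). Beside this result stand the neutrophil marker sums given above, which were also higher in each WT SP than in each Δβ SP library. Singly, S100a8 and S100a9 separated these groups and the other markers overlapped. WT SP replicate 3 lay below all 3 Δβ SP libraries for Mmp9 (920 against 2177 to 3301) and Cxcr2 (71.0 against 158 to 390). The library with the highest Socs3, WT SP replicate 1, was not the one with the highest marker sum. Of the 12 libraries, WT SP replicate 1 had the highest Mertk, C1qb, C1qa and Adgre1. Its Vcam1 was the lowest, at 699 normalized counts against 760 to 5511 in the others. It also had 38.7 normalized counts of Il10, which had at most 3.18 in the others. The part of neutrophil-like cells or macrophages in the Socs3 difference was not tested.

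In BM the genotypes did not separate for Socs3. WT BM had 32.7, 24.8 and 150.1 normalized counts and Δβ BM had 137, 71.3 and 79.8. The values overlapped because WT BM replicate 3 lay above all 3 Δβ BM libraries, and it was also the library with the highest neutrophil marker sum of BM. The means were 69.2 ± 70.1 and 96.0 ± 35.8 (SD, n = 3 each), and the log2 fold change was 0.87 (SE 0.77, adjusted p = 1.0 from limma). The difference of the genotype effect between SP and BM was -3.56 on the log2 scale (SE 1.09, unadjusted p = 0.00751, adjusted p = 0.926 from limma), which did not pass.

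Within WT blasts, Socs3 was higher in all 3 SP than in all 3 BM libraries, by 9.33-fold in the means. The log2 fold change was 3.09 (SE 0.77, adjusted p = 0.523 from limma, 0.00464 from DESeq2 and 0.403 from edgeR). Limma called it without WT SP replicate 3 (log2 fold change 3.75, adjusted p = 0.0289), and without WT SP replicate 1 the value was 2.23 (adjusted p = 0.999) and the means differed by 3.58-fold. Within Δβ blasts the organs overlapped, with a log2 fold change of -0.47 (SE 0.77, adjusted p = 1.0 from limma). The organ comparison in WT and the genotype comparison in SP share the 3 WT SP libraries, so that the high WT SP values enter both.

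Socs3 (Entrez gene 12702) maps to the minus strand of chromosome 11 from 117966079 to 117970047 in GENCODE release M21 on GRCm38. RefSeq promoter windows, from 250 bases before to 50 after an annotated start on GRCm38.p6, were found for 7 of the 8 genes, and Socs2 had none. They were searched for the palindromic STAT motif TTCNNNGAA, which 8.3% of 32851 windows hold, and for the interferon response motif GAAANNGAAA on both strands, which 3.44% hold. The Socs3, Cish and Socs1 windows held matches and are shown for that reason, with the matched bases in capitals and all else in lower case, 5′ to 3′ on the strand of the gene. The Socs3 match begins 154 bases upstream of the RefSeq start, in an intron of the longer GENCODE gene model. The stretch is chr11:117969487-117969546, minus strand.
Socs3: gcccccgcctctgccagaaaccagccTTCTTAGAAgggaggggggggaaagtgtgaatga
A match is a run of letters and was not read as an occupied site.

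Cish, which encodes the SOCS protein first known as a STAT5-induced inhibitor of erythropoietin and interleukin receptor signaling, resembled Socs3 in WT but with wider overlap. Its WT SP libraries were at 116, 119 and 34.5 normalized counts. In Δβ SP it had 54.3, 44.8 and 32.0. WT SP replicates 1 and 2 lay above all other 10 libraries, and replicate 3 fell among the Δβ values. In SP this gave a log2 fold change of -0.86 (SE 0.78, adjusted p = 0.586 from limma), smaller than 2 standard errors. In WT BM it had 38.7, 7.89 and 79.6 normalized counts and in Δβ BM 81.5, 42.1 and 20.7, so that the spread within WT BM alone was 10.1-fold, from 7 to 79 reads. The log2 fold change was 0.48 in BM (SE 0.78, adjusted p = 1.0), 1.38 for SP against BM in WT (SE 0.78, adjusted p = 0.648) and 0.04 for SP against BM in Δβ (SE 0.78, adjusted p = 1.0, all from limma).

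Cish (Entrez gene 12700) maps to the plus strand of chromosome 9 from 107296026 to 107302784, where the annotated genes Gm17040 and Gm17041 run over its exons on the opposite strand. Whether the counting used the strand is not stated in the sources used here. Its RefSeq window held 2 STAT motifs next to each other, at base 1 and base 12 from the RefSeq start, inside the first exon of the longer GENCODE model, where 0.457% of all windows held 2 or more. The stretch is chr9:107296654-107296678, plus strand.
Cish: cagttTTCCTGGAAagTTCTTGGAA
Cish and Socs3 were the 2 of 7 genes with a STAT motif in the windows searched.

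Socs1, the inhibitor that binds Janus kinases directly and restrains interferon signaling, had the opposite sign to Socs3 in SP. WT SP was at 23.9, 54.1 and 63.9 normalized counts and Δβ SP at 79.8, 68.3 and 61.9. The groups overlapped in SP because WT replicate 3 lay between Δβ replicates 2 and 3, and the low library was WT SP replicate 1, the one with the highest Socs3. Its log2 fold change was 0.66 (SE 0.37, adjusted p = 0.409 from limma). The WT BM values of 55.6, 59.7 and 66.5 were the closest together of its 4 groups, and the Δβ BM values were 98.9, 50.2 and 50.8. There the log2 fold change was 0.06 (SE 0.37, limma, adjusted p = 1.0). Between SP and BM it was -0.46 in WT (adjusted p = 0.725) and 0.14 in Δβ (adjusted p = 1.0, SE 0.37 each, both from limma).

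Socs1 (Entrez gene 12703) maps to the minus strand of chromosome 16 from 10782240 to 10785536. Its window held no STAT motif, and it held 2 interferon response motifs that share bases and begin 83 and 77 bases upstream of the start, where 0.225% of all windows held 2 or more. The stretch is chr16:10785587-10785646, minus strand, upstream of the GENCODE gene.
Socs1: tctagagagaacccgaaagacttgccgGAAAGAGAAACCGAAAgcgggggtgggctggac
The windows of Pim1, Pim2, Bcl3 and Pias3 held neither set of letters, which says nothing about the factors outside these 300 bases or with other motifs.

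Socs2, the SOCS member best known for restraining growth hormone receptor signaling, was at the limit of detection. Its normalized counts were 7.98, 0 and 1.01 in WT SP, 2.33, 0 and 1.07 in Δβ SP, 0, 1.13 and 0 in WT BM, and 9.78, 2.34 and 3.11 in Δβ BM. Of the 12 libraries, 8 had fewer than 3 reads, and the highest count was 9 reads in Δβ BM replicate 1. The 3 Δβ BM libraries, with 9, 2 and 3 reads, lay above the 3 WT BM libraries, with 0, 1 and 0, but no fold change was formed and Socs2 was not tested. It (Entrez gene 216233) maps to the minus strand of chromosome 10 from 95385362 to 95417180.

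Pim1 separated the organs in WT blasts, without passing limma's adjusted threshold, and did not separate them in Δβ. WT SP was at 1528, 1028 and 874 normalized counts, and WT BM at 276, 275 and 470.3. All 3 SP libraries lay above all 3 BM libraries, with means of 1143 ± 342 and 340.3 ± 113 (SD, n = 3 each), a 3.36-fold difference, and 5.66% of all tested genes were higher in WT SP with no overlap. The log2 fold change was 1.75 (SE 0.41), with the 25th lowest p of the 11476 genes in that comparison, at an adjusted p of 0.511 from limma, 0.00508 from DESeq2 and 0.403 from edgeR. Limma called it without WT SP replicate 3 (adjusted p = 0.0402), in a fit that called 598 of all genes. In every one of the 22 alternatives the log2 fold change lay between 1.52 and 2.01.

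In Δβ blasts Pim1 had 1128, 933 and 431 normalized counts in SP and 784, 463 and 336 in BM. The organs overlapped there, because Δβ SP replicate 3 lay below Δβ BM replicates 1 and 2. Within each replicate number, however, the SP library was above the BM library, and in Δβ the libraries of the same number deviated together across genes. The log2 fold change for SP against BM in Δβ was 0.63 (SE 0.41, adjusted p = 1.0 from limma). With the replicate block, fitted to the same-numbered libraries of both genotypes, its unadjusted p from limma was 0.0607, against 0.147 without. The adjusted p stayed at 1.0. Bcl3 was likewise higher in SP in each of the 3 Δβ pairs and Socs3 lower in each, with unadjusted p of 0.176 and 0.590 under the block (adjusted p = 1.0 each from limma). Between the genotypes, the log2 fold change was -0.53 in SP (adjusted p = 0.516) and 0.59 in BM (adjusted p = 1.0, SE 0.41 each, both from limma), with overlap in both organs. The difference of the genotype effect was -1.12 (SE 0.57, adjusted p = 0.926 from limma). Pim1 (Entrez gene 18712) maps to the plus strand of chromosome 17 from 29490753 to 29496112, and the antisense gene Gm26885 runs over part of its exons.

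Bcl3 followed the order of Pim1 with smaller differences. WT SP was at 606, 491 and 258 normalized counts and WT BM at 225, 197 and 226. The WT organs did not overlap, although WT SP replicate 3 stood only slightly above the highest BM value, and the means of 452 ± 178 and 216 ± 16.3 (SD, n = 3 each) differed by 2.09-fold. This gave a log2 fold change of 0.98 (SE 0.42, adjusted p = 0.599 from limma and 0.272 from DESeq2). Δβ SP had 543, 328 and 253 and Δβ BM 493, 256 and 163 normalized counts. These overlapped with each other and with WT of the same organ, and the log2 fold change was -0.26 for the genotype in SP (adjusted p = 0.771), 0.34 in BM (adjusted p = 1.0) and 0.38 for the organ in Δβ (adjusted p = 1.0, SE 0.42 each, all from limma). Bcl3 (Entrez gene 12051) maps to the minus strand of chromosome 7 from 19808462 to 19822770, with the antisense gene Gm16175 over part of its exons.

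Pim2 and Pias3 were the tested members whose log2 fold changes stayed within 0.30 of 0 in each comparison of 2 groups. Their replicates were not the closest together. In Δβ SP the SD on the log2 scale was 0.35 for Pim2 and 0.40 for Pias3, against 0.18 for Socs1. Pim2, which like Pim1 is controlled through its level rather than by an activation step, ranged from 43.9 to 88.1 normalized counts over the 12 libraries. Its values were 58.1, 55.1 and 48.7 in WT SP, 58.1, 77.3 and 47.0 in Δβ SP, 59.5, 43.9 and 78.6 in WT BM and 88.1, 61.9 and 53.9 in Δβ BM. The groups overlapped in every comparison, and no log2 fold change was farther from 0 than 0.17 (SE 0.29, adjusted p = 1.0 from limma, for the genotype in BM). It (Entrez gene 18715) maps to the plus strand of chromosome X from 7878262 to 7883432.

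Pias3 had 438, 464 and 318 normalized counts in WT SP and 332, 245 and 427 in Δβ SP. In WT BM it had 319, 357 and 450.2, and in Δβ BM 452, 256 and 367. Its lowest library was Δβ SP replicate 2 and its highest WT SP replicate 2, and the groups overlapped in each comparison. Its log2 fold change was -0.30 for the genotype in SP (SE 0.26, adjusted p = 0.571 from limma) and lay between -0.09 and 0.11 in the other 3 comparisons of 2 groups. It (Entrez gene 229615) maps to the plus strand of chromosome 3 from 96696384 to 96706070 and shares 4 exon bases with Nudt17 on the opposite strand, a gene listed at no more than 42.7 normalized counts here.

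**Figure D2:**
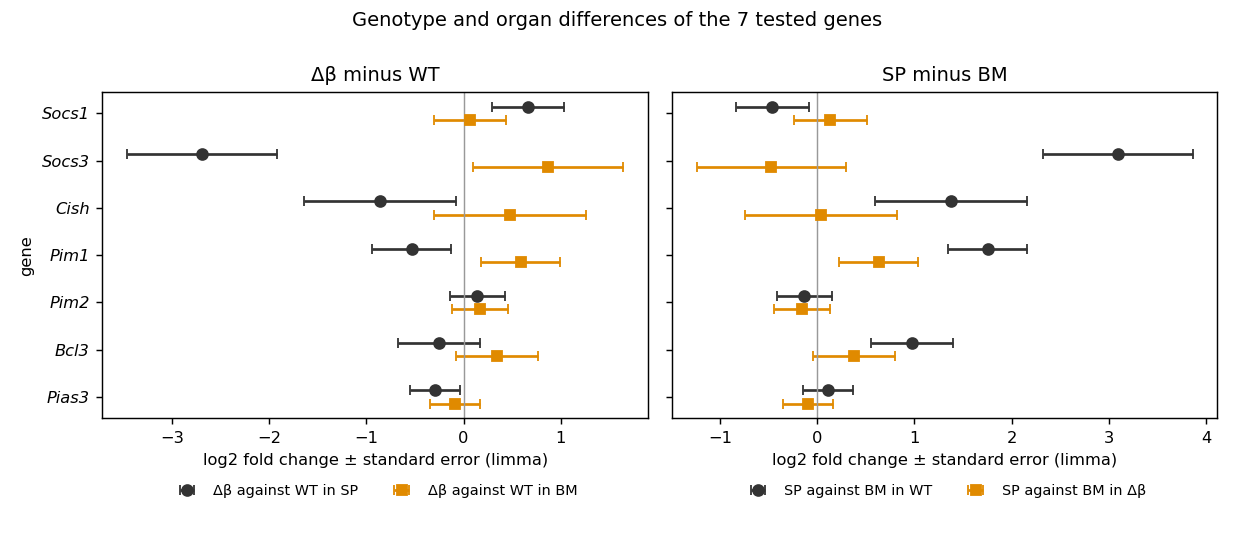
Log2 fold changes from limma with their standard errors for the 7 tested genes. The left panel plots Δβ minus WT in SP (circles) and in BM (squares), and the right panel SP minus BM in WT (circles) and in Δβ (squares). Socs3 lies at -2.69 and 0.87 on the left and at 3.09 and -0.47 on the right, and Pim2 and Pias3 stay within 0.30 of 0.

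Side by side, 5 of the 7 tested members had a negative log2 fold change for Δβ against WT in SP, with a median of -0.30 and a range of -2.69 to 0.66, beside a median of -0.01 over all tested genes. In BM, 6 of the 7 were positive, with a median of 0.34 and a range of -0.09 to 0.87, beside -0.02 over all genes. Between the organs the median was 0.98 in WT and 0.04 in Δβ, beside 0.00 over all genes in each. In SP, 0 of the 7 tested members lay above WT in Δβ without overlap and 1 below it (Socs3), beside 7.92% and 9.37% of all tested genes. In BM, no tested member separated the genotypes, beside 7.63% of all tested genes that did so in either direction. Socs3, Pim1 and Bcl3 were higher in SP than in BM in WT without overlap and no tested member was lower, beside 5.66% and 5.8% of all tested genes, and no tested member separated the organs in Δβ, where 7.42% of all genes did in either direction.

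Of the 7 tested members, replicates of a WT group differed most for Socs3 and Cish. The SD on the log2 scale was 1.56 for Socs3 in WT SP and 1.37 in WT BM, and 1.0 and 1.62 for Cish. In Δβ the order was another. The SD in SP was 0.73 (Pim1), 0.56 (Bcl3), 0.40 (Pias3), 0.38 (Cish), 0.35 (Pim2), 0.33 (Socs3) and 0.18 (Socs1). In BM it was 0.96 (Cish), 0.80 (Bcl3), 0.62 (Pim1), 0.55 (Socs1), 0.50 (Socs3), 0.41 (Pias3) and 0.36 (Pim2). Over the 12 libraries, Pim1 and Bcl3 moved together (Pearson's r = 0.88, Spearman's rho = 0.92), and r was 0.82 without the 2 libraries farthest from the median of Pim1 and 0.83 for the deviations from the group means. Socs3 and Pim1 had an r of 0.77 and a rho of 0.77, Socs3 and Cish 0.76 and 0.73, and Cish and Bcl3 0.75 and 0.78. Socs1 stood apart, with an r of -0.55 and a rho of -0.08 to Socs3 and an r of 0.04 without 2 libraries, so that its negative r rested on those libraries. These coefficients describe 12 libraries of 4 groups that share depth and cell mixture within a library.

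**Figure D3:**
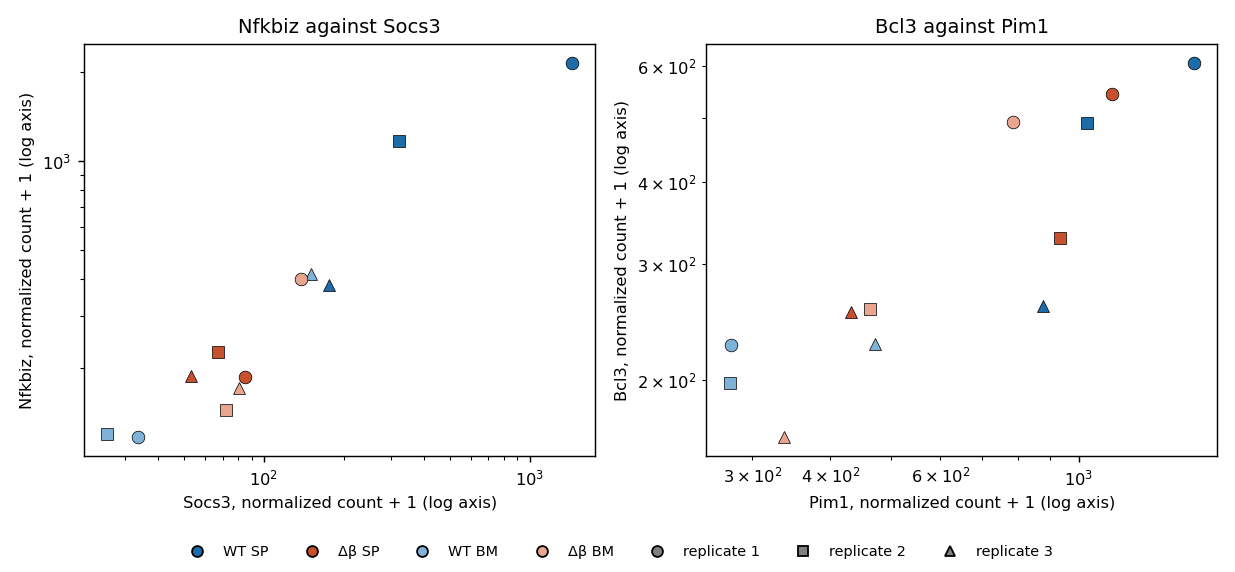
Nfkbiz against Socs3 (left) and Bcl3 against Pim1 (right) in the 12 libraries, normalized counts plus 1 on log axes. Color marks the group and the symbol the replicate number. WT SP replicates 1 and 2 lie at the upper right of the left panel, and WT BM replicates 1 and 2 at the lower left.

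The tested genes most like Socs3 over the 12 libraries, by Pearson's r on the log2 scale, were Ccrl2 (r = 0.97, rho = 0.89), Nfkbiz (r = 0.96, rho = 0.87) and Plk3 (r = 0.95, rho = 0.88). Nfkbiz encodes IκBζ, like Bcl3 an atypical IκB protein of the nucleus. Its normalized counts were 2147, 1170.1 and 381 in WT SP, 187, 226 and 187 in Δβ SP, 116, 119 and 415 in WT BM and 400.1, 144 and 171 in Δβ BM. As for Socs3, WT SP replicates 1 and 2 were the highest of the 12 and WT BM replicates 1 and 2 the lowest. For Bcl3 the likest genes were Plin2 (r = 0.98), Snx2 (r = 0.97) and Tubb2a (r = 0.97). Snx2 was also among those of Pim1 (r = 0.90), with Casp4 (r = 0.91) and Sdcbp (r = 0.90). For Cish they were Cdkn2a (r = 0.92), Arpc3 (r = 0.92) and P2ry13 (r = 0.91), for Socs1 Tfec (r = 0.92), Ppip5k1 (r = 0.90) and Rfc3 (r = 0.90), for Pim2 Gm16675 (r = 0.86), Cox16 (r = 0.83) and Ier3ip1 (r = 0.78), and for Pias3 March2, Plekhg2 and Fam222b (r = 0.93, 0.93 and 0.92). Each was the top of 11476 genes, so a high r is what the choice selects.

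Replicate numbers marked a shared pattern in Δβ. In both Δβ SP and Δβ BM, replicate 1 was the highest of 3 for Pim1, Bcl3, Cish, Socs1 and Socs3, and replicate 3 the lowest for Pim1, Bcl3, Cish and Pim2. Other orders differed between the organs. Pim2 was highest in replicate 2 and Pias3 in replicate 3 in SP, and both in replicate 1 in BM. Socs1 and Socs3 were lowest in replicate 3 in SP and in replicate 2 in BM. Of the T and NK cell genes, Cd4, Cd8a and Cd3g were also highest in replicate 1, at 45.7 and 40.2 normalized counts for Cd4, 17.8 and 103 for Cd8a and 20.9 and 72.8 for Cd3g in Δβ SP and Δβ BM, and at 0 to 10.7 in replicates 2 and 3. Cd3d and Cd3e were likewise highest in replicate 1. In Δβ SP, however, Cd2 was highest in replicate 3 (38.0, 12.3 and 76.9) and Nkg7 in replicate 2 (150, 181 and 110), whereas in Δβ BM both were highest in replicate 1. The part of such cells in these orders was not tested. In WT, replicate 1 was the highest of Pim1, Bcl3 and Socs3 in SP, whereas replicate 3 was the highest of these genes in BM. The spread between Δβ replicates was therefore in part common to the organs.

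Other genes of the pathway were read from lists of known family members, and genes of the lists are named where they passed or, if none passed, as the 2 with the largest fold change. The 8 further SOCS, PIM and PIAS genes (Socs4 to Socs7, Pim3, Pias1, Pias2 and Pias4) were all tested, and 0 were called by limma or DESeq2 in any comparison. Their median log2 fold change for Δβ against WT was 0.06 in SP and -0.10 in BM, and they ranged from -0.28 to 0.62 in these 2 comparisons. In SP the largest were Socs5 at 0.41 (adjusted p = 0.548) and Pias4 at 0.15 (adjusted p = 0.747), and in BM Socs5 at 0.62 and Socs7 at -0.28 (adjusted p = 1.0 each, all from limma). Between the organs in WT they were Socs7 at -0.37 and Socs6 at -0.32. At an unadjusted p under 0.05 from limma, and by edgeR, 0 of the 8 were found in any of the 5 comparisons.

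Of the receptors, kinases and STATs upstream of the feedback loop, none was called by limma in any of the 5 comparisons. A list of 10 Janus kinase and STAT genes, all tested, had a median log2 fold change of -0.31 for the genotype in SP and 0.10 in BM. In SP the largest values were those of Stat4 at -0.91 (SE 0.58, adjusted p = 0.448) and Jak1, a kinase used by gp130 and interferon receptors, at -0.43 (SE 0.16, adjusted p = 0.286, both from limma). The log2 fold change of Stat4 was -0.40 without WT SP replicate 3 and -1.36 without WT SP replicate 1. Jak1 had 4063 ± 794 normalized counts in WT SP and 2983 ± 209 in Δβ SP (SD, n = 3 each), and all 3 Δβ libraries lay below all 3 WT libraries, as for 9.37% of all tested genes. In BM the largest were Jak3 at 0.32 and Stat4 at -0.21 (adjusted p = 1.0 each, limma). At an unadjusted p under 0.05 from limma, 0 of the 10 were higher and 1 lower in SP and 0 in BM, and DESeq2 and edgeR called 0 in each comparison. Of all tested genes, 8.96% were lower in SP at that p, and 2.59% passed it in BM in either direction.

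Of 25 cytokine receptor genes 18 were tested, with medians of -0.25 in SP and -0.01 in BM for the genotype, and Il10ra (-1.15) and Lifr (-0.90) had the largest differences in SP. Both depended on WT SP replicate 1, with log2 fold changes of -0.39 for Il10ra and 0.01 for Lifr without it. For SP against BM in WT, DESeq2 called 1 of them, Il2rg, the common γ chain, at a log2 fold change of 1.24 (adjusted p = 0.357 from limma and 0.000178 from DESeq2). In that comparison DESeq2 called 0.967% of all tested genes. Of the 9 phosphatases and adaptors that limit Janus kinase signaling, all tested, none was called by either tool, and the largest were Cblb (-0.99) and Ptpn1 (-0.78) in SP and Usp18 (1.23) in BM. Without WT SP replicate 1 the SP values became -0.33 for Cblb and -0.35 for Ptpn1. Of 9 cytokines that activate STAT3, only Osm, Lif and Il27 passed the filter on low values, with log2 fold changes of -1.06 to -1.37 in SP, none called. At an unadjusted p under 0.05 from limma, 3 of the 18 receptors and 1 of the 9 phosphatases and adaptors were lower in Δβ SP, 0 of the 3 cytokines were, beside 8.96% of all tested genes, and none of the 3 lists had such a gene in BM.

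The 24 further STAT3 and STAT5 target genes gave 23 tested genes. For Δβ against WT in SP, 18 of the 23 were negative with a median of -0.52, beside -0.01 over all tested genes. Limma called 0, with 5 lower at an unadjusted p under 0.05 (all genes 8.96%). DESeq2 called 3 lower, beside 314 of all 11476 tested genes, and edgeR called 0. Junb, which encodes an AP-1 subunit, was at -1.70 on the log2 scale (SE 0.31, adjusted p = 0.0796 from limma and 0.000192 from DESeq2), and Fos at -1.73 (SE 0.72, adjusted p = 0.309 from limma and 0.374 from DESeq2). Both were lower in all 3 Δβ SP libraries than in all 3 WT SP libraries, as were 9.37% of all tested genes. In BM 12 of the 23 were negative, with a median of -0.03, no call by either tool and 0 at an unadjusted p under 0.05 from limma, and the largest were Ccnd1 (-1.20) and Ccnd2 (-0.87). Between the organs the median was 0.45 in WT and -0.02 in Δβ, without a call by either tool. At an unadjusted p under 0.05 from limma, 6 of the 23 were higher in SP in WT and 0 in Δβ, beside 500 and 75 of all tested genes.

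The 13 tested genes of 15 interferon-inducible genes, a list that shares Stat2 with the Janus kinase and STAT list, had the other sign. In SP, 11 of 13 were positive with a median of 0.87, limma called 0, with 7 higher at an unadjusted p under 0.05, DESeq2 called 6 higher and edgeR 0. Of all 11476 tested genes, 680 were higher at that limma p and DESeq2 called 143 higher. The largest were Gbp2 (log2 fold change 4.84, adjusted p = 0.218 from limma and 0.00367 from DESeq2) and Gbp4 (3.80, adjusted p = 0.225 and 0.00532), which encode interferon-inducible GTPases. In BM, 12 of 13 were positive with a median of 0.74, and limma called 1 higher, Ube2l6, the conjugating enzyme of ISG15, with 33.8 ± 17.6 normalized counts in WT BM and 403 ± 138 in Δβ BM (SD, n = 3 each, log2 fold change 3.65, SE 0.40, adjusted p = 0.00891 from limma). Limma's call was lost without Δβ BM replicate 1 or 2 (adjusted p = 0.0527 and 0.0701) and with the 6 libraries of the comparison alone (0.146). Over the 22 alternatives the adjusted p of Ube2l6 was 3.23e-18 to 0.146 and the log2 fold change 3.11 to 3.93. In BM DESeq2 called 3 higher, beside 22 of all 11476 tested genes. For several of these genes Δβ BM replicate 3 was close to WT BM. Gbp4 was at 84.8, 84.1 and 2.07 in Δβ BM and at most 1.98 in WT BM. Tap1 was at 2538, 2216 and 868 against 759 to 861. Replicate 3 lay below all WT BM libraries for Irf7 and Irf9, and above them for Ube2l6 (268) and Psmb8 (2394). In Δβ SP, replicate 3 was also the lowest for Gbp2 (1974, 2303 and 267), Gbp4 (96.1, 109 and 20.3) and Tap1 (4090, 4341 and 1685). It still lay above all WT SP libraries for these genes, which had at most 113, 5.07 and 1333. Irf1 was at 1034 there, below WT SP replicate 1 (1223). Ube2l6 was at 391, 377 and 330 in Δβ SP, and Cxcl10, at 27.1, 38.1 and 33.1, was not lowest in replicate 3. Between the organs, 12 of 13 were positive in each genotype, with a median of 1.22 in WT and 0.87 in Δβ and no call by limma, DESeq2 or edgeR, with 2 and 4 higher at an unadjusted p under 0.05 from limma, and Ciita (2.75 in WT and 2.02 in Δβ) and Cxcl10 (1.64 and 2.55) had the largest values. Of all tested genes, 500 in WT and 75 in Δβ were higher at that p. Socs1, which interferon also induces, had 0.66 in SP and 0.06 in BM and was called by neither tool.

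Of 14 NF-kB targets 13 were tested, and in SP all 13 were negative in Δβ, with a median of -0.79. Nfkbia, Tnfaip3, Tnf and Traf1 were lower in Δβ SP without overlap, as were 9.37% of all tested genes. For Il1b, Icam1, Birc3, Rel, Nfkb2 and Nfkb1, however, WT SP replicate 3 lay below all 3 Δβ SP libraries. Il1b was at 67.0 there, against 81.4 to 151, and Birc3 at 494, against 626 to 904. Limma called 1 lower, Tnf, with 622 ± 138 normalized counts in WT SP and 128 ± 38.4 in Δβ SP (SD, n = 3 each, log2 fold change -2.28, SE 0.29, adjusted p = 0.0353 from limma). DESeq2 called 3 lower, beside 314 of all tested genes. At an unadjusted p under 0.05 from limma 5 were lower, beside 8.96% of all tested genes. Limma's call of Tnf was lost without WT SP replicate 1 or 2 (adjusted p = 0.0631 and 0.114) and without Δβ SP replicate 1 or 3 (0.136 and 0.138). The call was also lost without WT BM replicate 2 or Δβ BM replicate 3 (0.0505 and 0.0722), and with the replicate block (0.0757). With a pseudocount of 0.25 (0.0532), without the trend (0.0597) and with the 6 libraries alone (0.172) it was lost too. Over its 22 alternatives the adjusted p was 3.09e-09 to 0.172 and the log2 fold change -2.52 to -2.17. In BM 6 of 13 were negative with a median of 0.05, and the largest were Cxcl2 (2.22) and Tnf (-0.78), with no call by either tool. For SP against BM in WT, 12 of 13 were positive with a median of 0.88, limma called 0, with 7 higher at an unadjusted p under 0.05, DESeq2 called 3 higher and edgeR 0, and Cxcl2 (5.13) and Il1b (3.40) had the largest values. Of all tested genes, 500 were higher at that limma p and DESeq2 called 90 higher. Bcl3, itself a target of NF-kB, had -0.26 in SP and was called by neither tool.

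**Figure D4:**
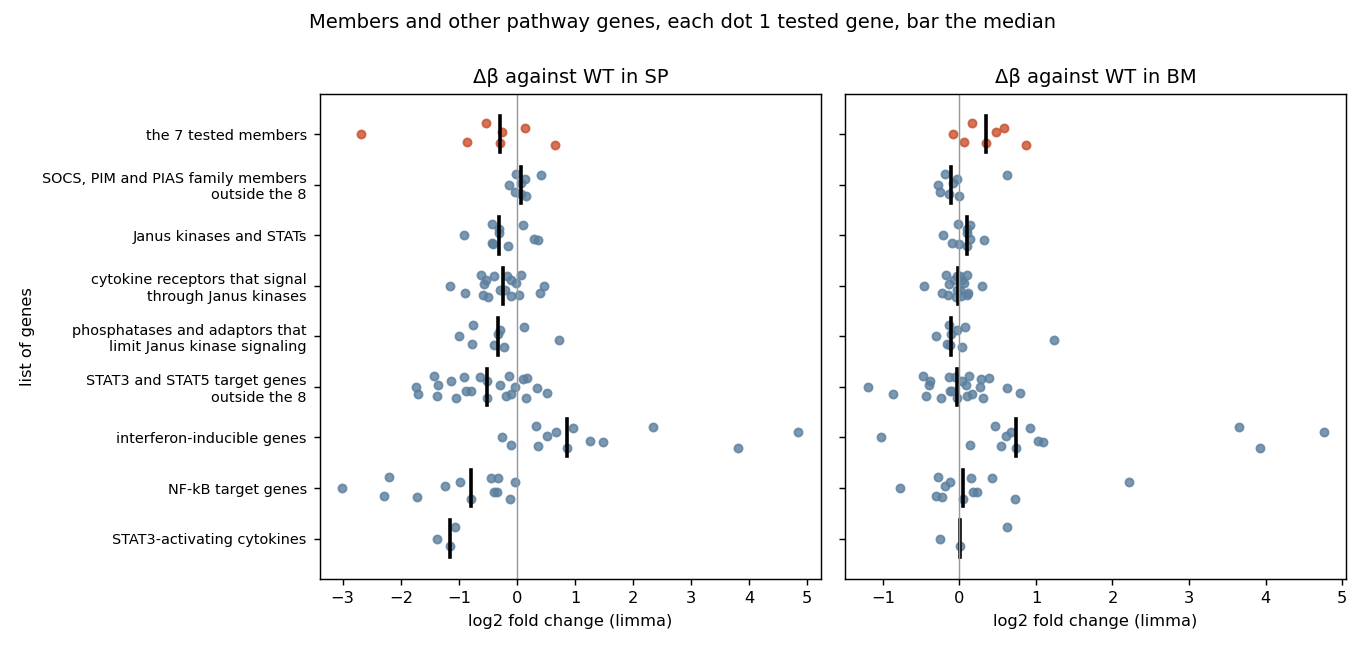
Log2 fold changes from limma for Δβ against WT in SP (left) and BM (right), 1 dot per tested gene, with a bar at the median of each list. The members have a median of -0.30 in SP and 0.34 in BM, NF-kB targets -0.79 and 0.05, and interferon-inducible genes 0.87 and 0.74.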

How the data were processed

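Venus-sorted blasts of 2 genotypes and 2 organs were grouped by the titles of the samples, 3 replicates each. Signal values were deposited for each gene in each library, each a gene count over the size factor of the library, and the submitters' notes name FastQC, STAR, featureCounts and DESeq2, and the builds GRCm38 and mm10. Dividing by the smallest nonzero value of a library gave whole reads (100% of values, within a tolerance of 1e-06 of a read). The table has 6 further columns that match no sample label, and they were not used. Log2 values with a pseudocount of 1 were fitted with limma 3.58.1 (lmFit, eBayes with trend) in R 4.3.3, with 1 mean for each of 4 groups. Alternatives were pseudocounts of 0.25 and 4, no filter, a minimum mean of 50, TMM, eBayes without trend, edgeR 4.0.16 and DESeq2 1.42.0 on the recovered reads, the 6 libraries of a comparison alone, a replicate block, and each library left out in turn. Same-numbered SP and BM libraries deviated together across genes in Δβ (r = 0.66, 0.61 and 0.63) and not in WT (-0.01, -0.04 and -0.24). Same-numbered WT and Δβ libraries did not do so in SP (0.20, -0.17 and -0.01) or in BM (0.13, -0.08 and -0.09). The replicate block was nevertheless fitted to both genotypes. For SP against BM it paired the same numbers within each genotype, WT included. For the other comparisons it was a term for the replicate number shared by all 4 groups. All 8 members were named, with the list genes that passed, or else the 2 with the largest change, and the 3 genes most correlated with each member. Members and lists were chosen with earlier results of these data known, so no list is independent evidence of a direction. One gene of 2 lists is not reported here.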

Additional observations from a re-analysis of the deposited data

How the results depend on the processing

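The count of called members moved with the setting in 2 comparisons. For Δβ against WT in SP it was 0 with limma, 1 with DESeq2 and 0 to 1 with 1 library left out, and for SP against BM in WT it was 0, 2 and 0 to 2. Each higher count with a library left out came without WT SP replicate 3. No other setting called a member. Over all genes, Δβ against WT in SP gave 12 calls, and 1 with a pseudocount of 0.25, 18 with a pseudocount of 4, 5 without a filter, 2 at a minimum mean of 50, 3 with TMM, 3 without the trend, 4 with edgeR, 457 with DESeq2, 2 with the 6 libraries alone, 2 with the replicate block, and 1 to 1884 with 1 library left out. In BM the 8 calls became 5 without the trend, 37 with DESeq2, 3 with the 6 libraries alone, 5 with the replicate block and 1 to 13 with 1 library left out. SP against BM in WT gave 0 calls, 111 with DESeq2 and 0 to 598 with 1 library left out, SP against BM in Δβ 0 and 2 with DESeq2, and the difference 0 and 3 with DESeq2. Of 763 log2 fold changes of members under an alternative, 729 kept sign and side of the threshold, 6 passed it and 28 changed sign. With all libraries, Cish for SP against BM in Δβ became -0.12 with edgeR and -0.11 with DESeq2, and Pim2 for the difference 0.0063 with TMM, 0.036 with edgeR and 0.038 with DESeq2. With 1 library left out, the ranges that crossed 0 were as follows. For the genotype in SP, Pim2 ranged from -0.042 to 0.31 and Bcl3 from -0.61 to 0.00071. For the genotype in BM, Socs1 ranged from -0.25 to 0.23, Cish from -0.41 to 1.18, Pim2 from -0.040 to 0.37, Bcl3 from -0.079 to 0.72 and Pias3 from -0.28 to 0.13. For SP against BM, Pim2 ranged from -0.34 to 0.072 in WT, and in Δβ Socs1 from -0.026 to 0.46, Cish from -0.45 to 0.52, Pim2 from -0.34 to 0.044 and Pias3 from -0.32 to 0.11. For the difference, Pim2 ranged from -0.23 to 0.18 and Pias3 from -0.43 to 0.00021. The replicate block, which used the replicate numbers in both genotypes, changed no call of a member. The cause of these moves was not tested. Depth limits Socs2 most, with at most 9 reads, and Cish, with as few as 7. An exact permutation test of 3 libraries against 3 cannot go below 0.1 (two-sided), so no single-gene test without a model could pass.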
